A study of Arabidopsis thaliana with 6 samples.

Results

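The genes described here were lower in YFP-positive than in YFP-negative protoplasts in every same-numbered pair of arrays. A gene was taken when its deposited log2 value was at least 1.5 lower in the YFP-positive array (2.83-fold) in each of the 3 pairs and all 3 of its YFP-negative values were above 5. Of 16550 genes named by probe sets with exactly 1 gene, 116 (0.701%) met these thresholds. A list of 22 names was set aside. It held 21 of the 116, which had a median difference of -4.21, and AT1G30700, which did not meet the thresholds with a difference of -0.97 in pair 1. The remaining 95 genes are the members. Because the YFP-positive minus YFP-negative difference chose them, that difference is given for the members as a description, with no test.

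The cells came from cotyledons of Arabidopsis thaliana seedlings that carried SEOR1pro::SEOR1-YFP, a fusion of a sieve element protein to a yellow fluorescent protein under the promoter of its own gene. Cotyledons of 6-day-old seedlings were cultured for 72 hours with 1.25 mg/L 2,4-D, 0.25 mg/L kinetin and 10 µM bikinin. These are a synthetic auxin, a cytokinin and an inhibitor of GSK3-like kinases, and the culture system, VISUAL, turns leaf mesophyll cells into vascular cells. Protoplasts were sorted by fluorescence. The design text names the YFP-positive fraction phloem and the YFP-negative fraction non-phloem, and each has 3 arrays. Genotype, age, medium and hours of culture were shared by both groups, so the comparison is between 2 populations sorted after the same treatment. YFP-negative cells are those that the sort took as not fluorescent, and the labels do not say which cell types they held. The labels do not say that the replicates were separate cultures.

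Plant cells answer microbes, wounding and oxidative stress with a broad programme. Receptors and kinases at the cell surface signal to transcription factors such as the WRKY family, and the cell then releases hydrolases and antimicrobial proteins, strengthens its wall through peroxidases, and detoxifies reactive compounds. Sieve elements, the conducting cells of phloem, lose their nucleus and much of their cell content as they mature. Families known from this defence and stress programme are found among the members. The reference table gives no product names, so the families named here for genes that carry only a locus tag come from general knowledge of Arabidopsis genes, and the grouping by role was made after the values were seen. In all, 60 members were placed in 5 role groups, and 35 had another or no assigned role.

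Values below are deposited log2 values in the order of replicates 1, 2 and 3, and a difference is YFP-positive minus YFP-negative. Array medians over all probe sets were 2.61, 2.20 and 2.92 in the YFP-positive arrays and 2.55, 2.10 and 2.80 in the YFP-negative arrays. Both arrays of replicate 1 held exactly the same value for 7907 of the 16550 genes, 681 of them above 5 on every YFP-negative array, whereas 1118 and 1083 genes were equal within pairs 2 and 3. Such genes cannot be members. How these equal values arose was not tested. Same-numbered arrays deviated together from their group means. Across all genes these deviations correlated at 0.66, 0.61 and 0.49 for numbers 1 to 3, and across the members at 0.67, 0.55 and 0.66. A lower value in sorted cells can reflect less transcript per cell or fewer cells that hold it, and these cannot be told apart here.

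The members averaged between 2.05 and 7.97 in YFP-positive cells and between 5.68 and 10.41 in YFP-negative cells. Their median was 4.51 in YFP-positive and 7.37 in YFP-negative cells, and their mean differences ran from -5.48 to -1.63 with a median of -2.92, against -0.04 over all genes. In YFP-negative cells the median member stood at percentile 88.3 of all genes by mean value, and in YFP-positive cells at percentile 65.0. For 17 members every YFP-positive value was still above 5. At the other end, 27 members lay below the array median on at least 1 YFP-positive array, and 9 of these on 2 of them, so the size of those differences in transcript level is uncertain. For 87 of the 95 members the groups did not overlap, where 4.34% of all genes were without overlap in this direction. In limma at an adjusted p under 0.05, 15 members were among the calls, which took in 0.224% of all genes (37 lower genes). Once replicate number entered the model as a block, 4 members were among them, against 0.0483% of all genes (8 lower genes). The 15 were AT1G36622, AT3G15534, AT1G69900, AT1G60010, AT4G27740, AT4G22470, AT5G44720, AT2G28720, AT4G20970, AT5G57010, AT1G23140, AT2G28315, AT3G51440, AT4G18930 and AT5G02230, and the 4 were AT4G20970, OSM34, AT3G27200 and WRKY29. The rule used the same contrast, so nothing is read from these calls. Scaling changed the split of all calls, which was 37 lower and 142 higher as deposited and 165 lower and 316 higher after each array was centred on its median, a step that moved the median difference of all genes from -0.04 to -0.16.

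**Figure D1:**
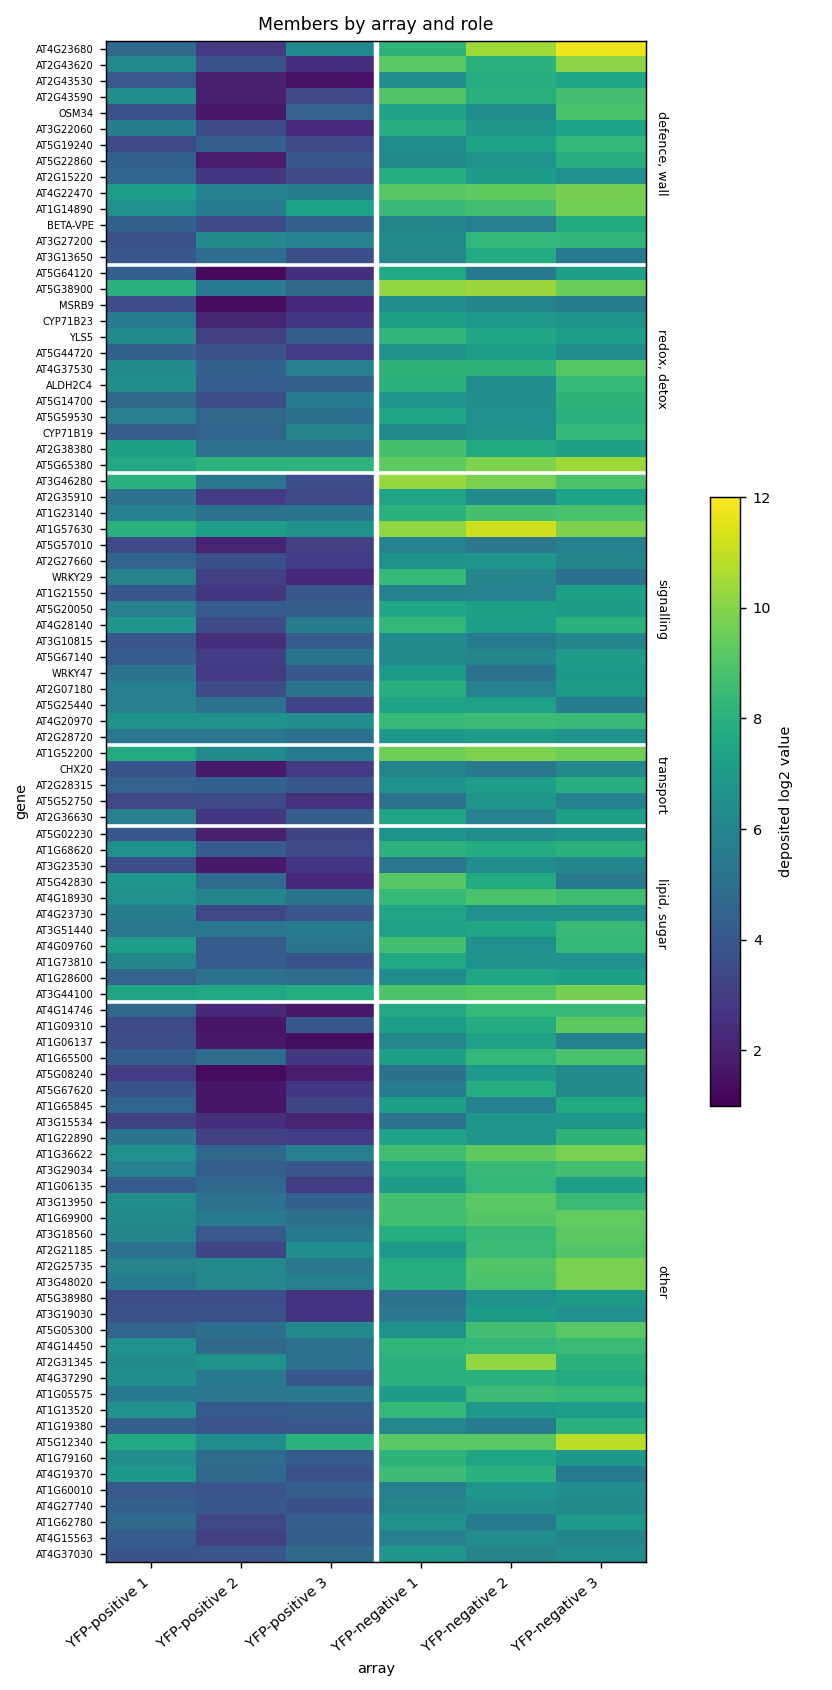
Deposited log2 values (colour) of the 95 members (rows, grouped by role and ordered by mean difference within a group) on the 3 YFP-positive arrays, left, and the 3 YFP-negative arrays, right. Every row is darker in each YFP-positive array than in the YFP-negative array of the same number, and YFP-positive replicate 1 held the highest YFP-positive value for 65 of the 95.

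The 14 members in the group of defence, cell wall and proteolysis genes had a median difference of -3.54. In all 14 the sorted groups did not overlap, against 87 of the 95 members and 4.34% of all genes. The rule favours such gaps, so nothing is read from this count. AT4G23680, which encodes a protein of the family of major latex protein-like lipid-binding proteins, had the largest mean difference of the 95. It stood at 4.82, 2.87 and 6.15 in YFP-positive cells, against 8.16, 10.42 and 11.71 in YFP-negative cells. Its pair differences were -3.35, -7.55 and -5.56, the last YFP-negative array being the brightest and pair 2 the widest apart. A pair of members, AT2G43620 and AT2G43590, encode chitinases, enzymes that cut the chitin of fungal walls. AT2G43620 had 6.13, 3.83 and 2.49 in YFP-positive cells, against 9.21, 8.05 and 10.10 in YFP-negative cells. AT2G43590 had 6.38, 2.02 and 3.34 in YFP-positive cells, against 9.02, 8.0004 and 8.74 in YFP-negative cells. In both genes YFP-positive replicate 1 was the highest YFP-positive array, and it stayed below every YFP-negative array. AT2G43530, which encodes a small cysteine-rich protein of the knottin fold shared with plant defensins, was at 4.09, 2.03 and 1.53 in YFP-positive cells, against 6.41, 7.86 and 7.50 in YFP-negative cells.

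OSM34, or osmotin 34, is a thaumatin-like protein of the kind that accumulates in pathogen and osmotic stress. Its values were 3.79, 1.77 and 4.48 in YFP-positive cells, against 7.35, 6.35 and 8.82 in YFP-negative cells. Its pair differences of -3.56, -4.58 and -4.34 lay closer together than its arrays did, replicate 2 being the lowest in both populations. AT3G27200 encodes a plastocyanin-like blue copper protein. It had 3.71, 6.19 and 5.88 in YFP-positive cells, against 6.22, 8.28 and 8.24 in YFP-negative cells, so that YFP-positive replicate 2 came within 0.03 of YFP-negative replicate 1 while the pair differences were -2.51, -2.09 and -2.36. AT4G22470, a lipid transfer protein-like gene, had 7.14, 5.83 and 5.64 in YFP-positive cells, against 9.14, 9.31 and 9.72 in YFP-negative cells, and its groups were 1.996 apart at the nearest.

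AT3G22060, a secreted protein with the cysteine-rich repeats of a receptor kinase family, stood at 5.61, 3.45 and 2.31 in YFP-positive cells, against 7.93, 6.82 and 7.38 in YFP-negative cells. The other proteins of this group were a GPI-anchored glycoprotein (AT5G19240, -3.56), a serine carboxypeptidase (AT5G22860, -3.53), a basic secretory protein (AT2G15220, -3.53), an invertase or pectin methylesterase inhibitor (AT1G14890, -2.45) and a dirigent-like protein (AT3G13650, -2.27), with mean differences in brackets. BETA-VPE, a vacuolar processing enzyme that cuts proteins in the vacuole, averaged 4.11 ± 0.52 in YFP-positive and 6.49 ± 1.06 in YFP-negative protoplasts (SD, n = 3 each). Its values were 4.40, 3.51 and 4.42 in YFP-positive cells, against 6.02, 5.75 and 7.70 in YFP-negative cells, with YFP-negative replicate 3 well above the other two.

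**Figure D2:**
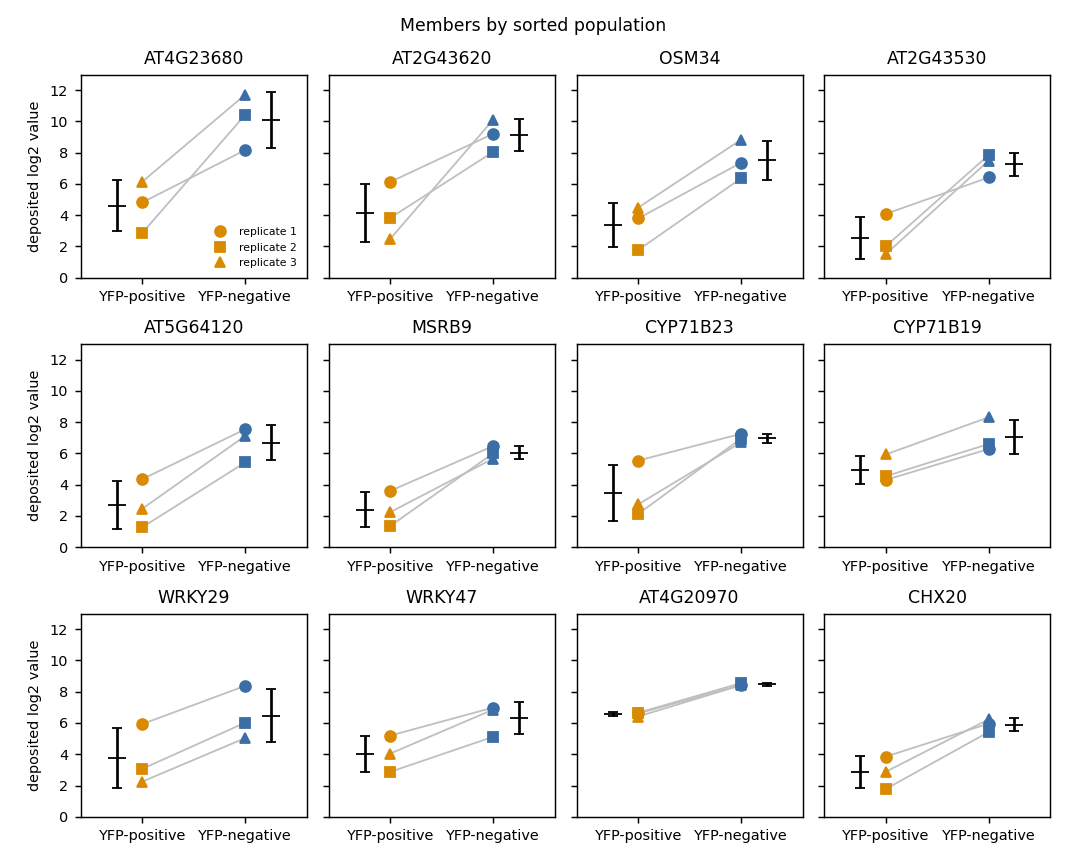
Deposited log2 values of 12 members in YFP-positive (left) and YFP-negative cells (right) of each panel, one marker per replicate, lines joining same-numbered arrays, and bars giving the mean and SD of 3 arrays. Lines run nearly parallel in WRKY29 and AT4G20970 and fan out in AT4G23680 and AT2G43620.

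Genes of redox chemistry, detoxification and phenolic compounds numbered 13, with a median difference of -3.02. Peroxidases of the secreted plant class use hydrogen peroxide to cross-link wall phenolics, and 3 of them were members. AT5G64120 had 4.36, 1.28 and 2.47 in YFP-positive cells, against 7.55, 5.43 and 7.12 in YFP-negative cells. Its highest YFP-positive value was 1.07 below its lowest YFP-negative value. AT4G37530 had 6.27, 4.38 and 5.70 in YFP-positive cells, against 8.16, 8.15 and 9.08 in YFP-negative cells, and AT2G38380 had 7.24, 5.16 and 5.12 in YFP-positive cells, against 8.81, 7.67 and 7.24 in YFP-negative cells. AT4G37530 showed a clear gap between the groups, while in AT2G38380 YFP-positive replicate 1 and YFP-negative replicate 3 met at 7.24. MSRB9, a methionine sulfoxide reductase that repairs oxidised methionine, had 3.61, 1.36 and 2.25 in YFP-positive cells, against 6.47, 6.00 and 5.67 in YFP-negative cells. Both lower YFP-positive values lay under the medians of their arrays. AT5G38900, a thioredoxin-fold protein, was among the brightest members in YFP-negative cells. It had 8.01, 5.51 and 4.71 in YFP-positive cells, against 10.23, 10.36 and 9.55 in YFP-negative cells. YLS5, a DJ-1 family protein, had 6.21, 3.09 and 4.24 in YFP-positive cells, against 8.19, 7.49 and 7.16 in YFP-negative cells.

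CYP71B23 and CYP71B19 encode cytochrome P450 mono-oxygenases of a subfamily with many tandem copies. CYP71B23 had 5.54, 2.13 and 2.74 in YFP-positive cells, against 7.26, 6.95 and 6.70 in YFP-negative cells. Its difference was narrow in pair 1 and wide in the others, at -1.71, -4.82 and -3.96. CYP71B19 had 4.31, 4.55 and 5.94 in YFP-positive cells, against 6.28, 6.61 and 8.32 in YFP-negative cells. Its pair differences of -1.97, -2.06 and -2.38 were closer to each other than those of CYP71B23, and replicate 3 was the highest array in both populations. Whether these related genes share probe signal was not tested. ALDH2C4 encodes the aldehyde dehydrogenase that makes ferulic and sinapic acids from their aldehydes. It had 6.41, 4.27 and 4.40 in YFP-positive cells, against 8.08, 6.33 and 8.39 in YFP-negative cells, so that YFP-positive replicate 1 lay 0.08 above YFP-negative replicate 2.

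AT5G44720, of the molybdenum cofactor sulfurase family, had 4.41, 3.73 and 2.98 in YFP-positive cells, against 6.62, 7.12 and 6.50 in YFP-negative cells. Its groups were 2.09 apart at the nearest. AT5G65380, a MATE-type efflux transporter, had the highest YFP-positive mean of all 95 members, with 7.62, 8.12 and 8.17 in YFP-positive cells, against 9.32, 9.86 and 10.44 in YFP-negative cells. It remained bright in both populations, and its difference of -1.91 was 1 of the 4 above -2. AT5G14700, related to cinnamoyl-CoA reductases, and AT5G59530, an oxoglutarate- and iron-dependent oxygenase, had mean differences of -2.49 and -2.19.

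Signalling and regulatory genes formed the largest role group, with 17 members and a median difference of -2.56. WRKY29, a transcription factor known from the response to bacterial flagellin, had 5.93, 3.07 and 2.25 in YFP-positive cells, against 8.37, 6.02 and 5.03 in YFP-negative cells. Replicate 1 was high in both populations, so its YFP-positive value lay above 1 YFP-negative value, while the pair differences were -2.44, -2.95 and -2.78. WRKY47 had 5.19, 2.87 and 4.04 in YFP-positive cells, against 6.98, 5.11 and 6.85 in YFP-negative cells, and there too replicate 2 was low in both populations. AT4G20970, a basic helix-loop-helix transcription factor gene, was one of the steadiest members. It averaged 6.56 ± 0.13 in YFP-positive and 8.46 ± 0.08 in YFP-negative protoplasts (SD, n = 3 each), from 6.61, 6.65 and 6.41 in YFP-positive cells, against 8.42, 8.55 and 8.41 in YFP-negative cells. AT4G28140, an AP2/ERF transcription factor gene, had pair differences of -1.58, -3.64 and -2.37.

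AT1G57630 encodes a protein with a TIR domain, the signalling domain of one class of plant immune receptors. It was the brightest member in YFP-negative cells, with 8.02, 7.14 and 6.67 in YFP-positive cells, against 10.19, 11.22 and 9.81 in YFP-negative cells. AT3G46280, a kinase-like protein gene, had 8.02, 5.34 and 3.64 in YFP-positive cells, against 10.32, 9.79 and 8.93 in YFP-negative cells, with an SD of 2.21 among its YFP-positive arrays. The kinase genes AT5G20050, AT2G07180 and AT5G25440 had mean differences of -2.56, -2.08 and -2.06. AT5G57010 encodes a calmodulin-binding protein, AT1G21550 a calcium-binding protein of the EF-hand type, and AT1G23140 a small protein with a calcium-dependent lipid-binding C2 domain. AT5G57010 had 3.53, 2.11 and 3.08 in YFP-positive cells, against 5.87, 5.37 and 5.82 in YFP-negative cells. AT1G23140 had 5.85, 5.11 and 5.23 in YFP-positive cells, against 8.06, 8.79 and 8.82 in YFP-negative cells. Their groups were at least 1.84 apart. AT1G21550 had a mean difference of -2.71.

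Genes of protein turnover in this group were the RING finger genes AT2G35910 and AT3G10815, of the kind that attach ubiquitin to proteins, with mean differences of -3.19 and -2.42, and the F-box gene AT5G67140 at -2.28. AT2G27660, with a cysteine- and histidine-rich C1 domain, was at -2.75. AT2G28720 encodes a histone H2B, a core protein of chromatin. It had 5.32, 5.32 and 5.00 in YFP-positive cells, against 6.85, 7.03 and 6.65 in YFP-negative cells. This was the smallest mean difference of the 95, at -1.63, and the SD was 0.19 in YFP-positive and 0.19 in YFP-negative cells.

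The group of transport across membranes held 5 members, while the efflux transporter gene AT5G65380 was placed under detoxification. Of the 5, CHX20 encodes a cation/proton exchanger known from guard cells. It had 3.85, 1.79 and 2.89 in YFP-positive cells, against 5.97, 5.43 and 6.24 in YFP-negative cells, and replicates 2 and 3 of the YFP-positive group lay under the medians of their arrays. AT2G28315, a nucleotide-sugar transporter gene, had 4.44, 4.43 and 3.97 in YFP-positive cells, against 6.55, 7.17 and 7.89 in YFP-negative cells. Its YFP-positive arrays lay close together, with an SD of 0.27. AT1G52200, of the PLAC8 family, was the brightest of the 5 with 7.72, 6.27 and 5.52 in YFP-positive cells, against 9.55, 9.89 and 9.57 in YFP-negative cells. AT5G52750, with a heavy-metal-binding domain, and AT2G36630, of the sulfite exporter family, had mean differences of -2.79 and -2.55.

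The 11 members in lipid, sugar and other enzyme families had a median difference of -2.54. AT5G02230, a hydrolase of the haloacid dehalogenase type, had 4.02, 2.01 and 3.16 in YFP-positive cells, against 6.71, 6.34 and 6.71 in YFP-negative cells. AT3G51440, of the strictosidine synthase-like family, had 5.31, 5.31 and 5.48 in YFP-positive cells, against 7.30, 7.45 and 8.42 in YFP-negative cells. AT4G18930, a cyclic phosphodiesterase gene of RNA metabolism, stood at 6.51, 6.00 and 5.23 in YFP-positive cells, against 8.36, 8.87 and 8.57 in YFP-negative cells. In each of these 3 the YFP-positive and YFP-negative arrays were at least 1.82 apart. AT3G44100, with a lipid-recognition domain, was bright in both populations at 7.43, 7.54 and 7.80 in YFP-positive cells, against 8.95, 9.12 and 9.76 in YFP-negative cells. AT4G09760, of the choline kinase family that starts phosphatidylcholine synthesis, had 7.15, 4.19 and 5.24 in YFP-positive cells, against 8.69, 6.54 and 8.31 in YFP-negative cells. Its groups overlapped by 0.61, with replicate 1 high and replicate 2 low in both populations. The widest overlap was in AT5G42830, an acyltransferase gene, at 6.80, 4.85 and 2.21 in YFP-positive cells, against 9.16, 7.71 and 5.45 in YFP-negative cells. There replicate 1 was the highest and replicate 3 the lowest array in both populations, and the YFP-positive array of replicate 1 exceeded the YFP-negative array of replicate 3 by 1.34. AT4G23730, of the galactose mutarotase type, had 5.66, 3.36 and 3.95 in YFP-positive cells, against 7.43, 6.55 and 6.61 in YFP-negative cells. AT1G68620, a carboxylesterase-like gene, and AT3G23530, of the cyclopropane fatty acid synthase family, had mean differences of -3.26 and -3.22. AT1G73810, a glycosyltransferase gene, and AT1G28600, a GDSL lipase gene, had -2.29 and -2.17.

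Members with another or no assigned role numbered 35, the largest set, with a median difference of -3.05. The groups did not overlap in 34 of them, against 87 of the 95 members and 4.34% of all genes. AT4G19370 was the exception, at 6.86, 4.68 and 3.72 in YFP-positive cells, against 8.55, 8.01 and 5.57 in YFP-negative cells, with groups that overlapped by 1.30. AT4G14746 had 4.73, 2.27 and 1.72 in YFP-positive cells, against 7.65, 8.38 and 8.44 in YFP-negative cells. AT1G09310, of a plant family of unknown function (DUF538), had 3.46, 1.66 and 3.97 in YFP-positive cells, against 7.16, 7.76 and 9.25 in YFP-negative cells. Their mean differences of -5.25 and -5.02 were the next largest after that of AT4G23680, and both had the narrowest gap in pair 1. AT1G65500 had 4.26, 4.88 and 2.80 in YFP-positive cells, against 7.25, 8.28 and 8.83 in YFP-negative cells, with YFP-positive replicate 3 lowest and YFP-negative replicate 3 highest. AT5G08240 had 2.96, 1.33 and 1.87 in YFP-positive cells, against 5.00, 6.90 and 6.28 in YFP-negative cells. Its YFP-negative replicate 1 was the member value nearest to the floor of 5. AT5G67620 had 3.76, 1.68 and 2.76 in YFP-positive cells, against 5.55, 7.81 and 6.27 in YFP-negative cells, and AT1G65845 had 4.56, 1.62 and 3.31 in YFP-positive cells, against 7.19, 5.83 and 7.68 in YFP-negative cells. In both genes YFP-positive replicate 2 was the lowest array.

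A further 5 of these 35 were among the 15 calls named above. AT1G36622 had 6.50, 4.71 and 5.76 in YFP-positive cells, against 8.65, 9.33 and 9.79 in YFP-negative cells. AT3G15534 had 3.12, 2.505 and 2.04 in YFP-positive cells, against 5.17, 6.78 and 6.81 in YFP-negative cells. AT1G69900, an actin cross-linking protein gene, had 6.25, 5.57 and 5.02 in YFP-positive cells, against 8.67, 9.04 and 9.34 in YFP-negative cells. In each of these the lowest YFP-negative value lay more than 2 above the highest YFP-positive value. AT1G60010 had 4.08, 3.90 and 4.32 in YFP-positive cells, against 5.76, 6.78 and 6.41 in YFP-negative cells. AT4G27740, of the Yippee family of zinc-binding proteins, had 4.38, 4.00 and 3.71 in YFP-positive cells, against 6.02, 6.42 and 6.25 in YFP-negative cells. The last gene had a mean difference of -2.20 with an SD of 0.20 in YFP-negative cells. AT5G12340 was the brightest of the set in YFP-positive cells, with 7.55, 6.31 and 8.12 in YFP-positive cells, against 9.20, 9.18 and 10.85 in YFP-negative cells. Among the 35 there remain AT1G06135, AT1G06137 and AT1G22890, described with their neighbours, and 19 members with mean differences between -3.57 and -2.16, namely AT3G29034, AT3G13950, AT3G18560, AT2G21185, AT2G25735, AT3G48020, AT5G38980, AT3G19030, AT5G05300, AT4G14450, AT2G31345, AT4G37290, AT1G05575, AT1G13520, AT1G19380, AT1G79160, AT1G62780, AT4G15563 and AT4G37030.

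The 3 pairs did not contribute alike. The members' median difference was -1.97 in pair 1, -3.25 in pair 2 and -3.33 in pair 3, against medians of -0.01, -0.10 and -0.01 in these pairs over the 3748 genes above 5 in all YFP-negative arrays. Of those 3748 genes, 3.71%, 9.23% and 9.18% were at least 1.5 lower in YFP-positive cells in pairs 1, 2 and 3. Pair 1 was the narrowest pair in 87 of the 95 members and the widest in 2, AT3G27200 and AT4G37030, the second with differences of -2.93, -1.999 and -1.55. YFP-positive replicate 1 gave the highest YFP-positive value in 65 members, replicate 3 in 18 and replicate 2 in 12. The median member lay 0.82 above its YFP-positive mean on replicate 1, where the genes above 5 in YFP-negative cells lay 0.15 above theirs. In YFP-negative cells the highest value fell on replicate 3 in 41 members, on replicate 1 in 28 and on replicate 2 in 26. The arrays of pair 1 were also the most alike of the 3 pairs over all genes, with a correlation of 0.949 against 0.907 and 0.895, and they held most of the equal values. Whether this likeness plays a part in the narrow pair 1 was not tested. Genes at least 1.5 higher in YFP-positive cells in every pair and above 5 on all YFP-positive arrays numbered 300, and their medians were 4.57, 3.50 and 4.43, so that there pair 2 was the narrowest.

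**Figure D3:**
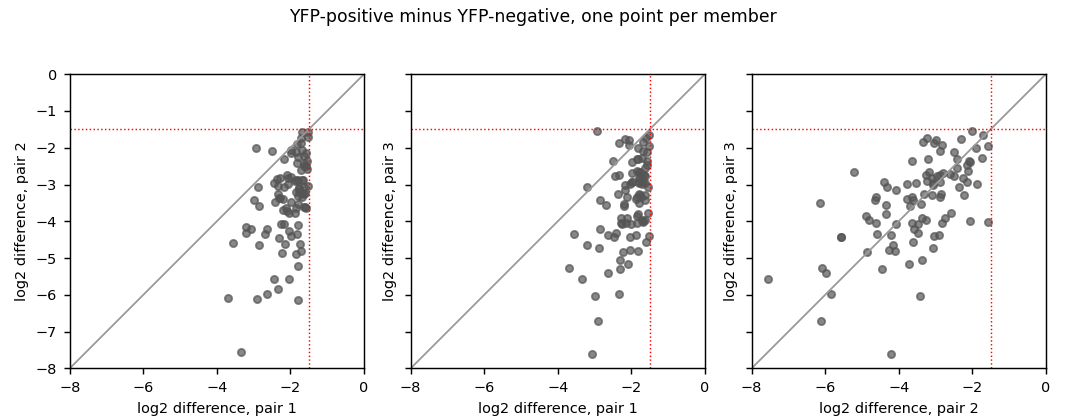
YFP-positive minus YFP-negative log2 difference of each of the 95 members in one pair against another, with the line of equality in grey and the threshold of -1.5 dotted in red. Most points lie below the line where pair 1 is on the horizontal axis, since 87 members had their narrowest gap in pair 1.

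Across the 95 members the differences of pairs 1 and 2 correlated at 0.50, of pairs 1 and 3 at 0.50, and of pairs 2 and 3 at 0.61, as a description over genes that share the same 6 arrays and were all cut at -1.5. The members' median SD was 0.996 among YFP-positive and 0.68 among YFP-negative arrays. The rule held every YFP-negative value above 5 and set no such bound on the YFP-positive values, so it shapes these SDs and nothing is read from them. For the genes above 5 in all YFP-negative arrays these medians were 0.53 in YFP-positive and 0.57 in YFP-negative cells.

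Choosing genes on 2 pairs left the third as arrays the choice had not used. The left-out genes were included in this reading. The full rule used all 3 pairs, and the 116 genes that met it are among those that passed in each choice below. The shares therefore describe how the pairs go together and are no separate test. Of 136 genes that met the thresholds in pairs 1 and 2, 123 were at least 1.5 lower in YFP-positive cells in pair 3 as well (90.4%), where 9.19% of the 3907 genes above 5 in the YFP-negative arrays 1 and 2 were. Their median difference in pair 3 was -3.25, against 0.00 for those 3907 genes, and all 136 lay below 0. Of 150 genes chosen on pairs 1 and 3, 126 passed in pair 2 (84.0%, against 7.62% of 4804 genes), 144 lay below 0, and the median was -3.06. Genes chosen on pairs 2 and 3 were more numerous, at 285. In pair 1, 128 of these passed (44.9%, against 3.87% of 3901 genes), 276 lay below 0, and the median was -1.35. With pair 1 left out of the rule the members would have numbered 263.

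**Figure D4:**
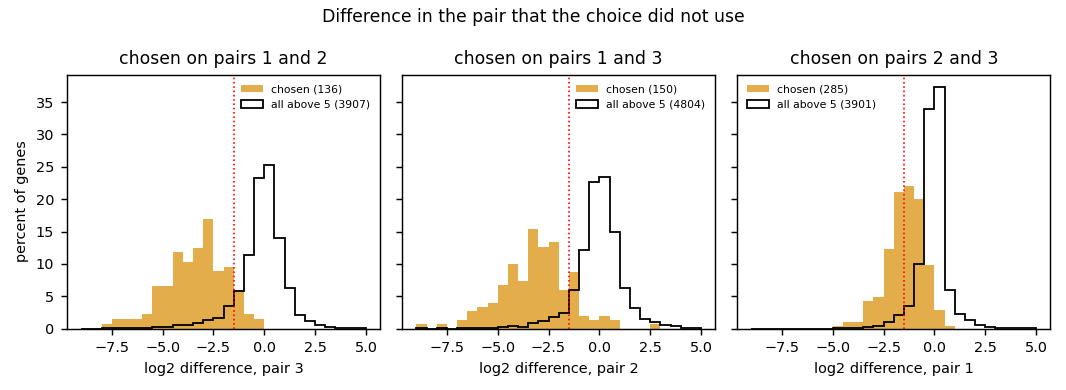
Histograms, in percent of genes, of the log2 difference in the pair not used for the choice, for genes chosen on the other 2 pairs (orange, number in the key) and for all genes above 5 in those YFP-negative arrays (black line). The chosen genes centre at -3.25, -3.06 and -1.35 in pairs 3, 2 and 1, and the dotted line marks -1.5.

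At the edge of the rule, AT2G28720 was the member with the narrowest gap, 1.52 in pair 1. AT5G38980 (1.53), AT3G44100 (1.53), AT4G09760 (1.54) and AT4G37290 (1.54) followed. AT5G38980 had 3.63, 3.62 and 2.59 in YFP-positive cells, against 5.15, 6.65 and 6.999 in YFP-negative cells. AT4G37290 had 6.45, 5.44 and 4.01 in YFP-positive cells, against 7.99, 8.03 and 7.78 in YFP-negative cells. Their other pairs were at least 2.59 apart. Just outside were MGL, a methionine gamma-lyase gene, with a narrowest gap just under the threshold, PUB23 (1.48), a U-box ubiquitin ligase gene, UGT73C7 (1.48), AT1G47530 (1.46) and AT5G36925 (1.46). PUB23 had 8.11, 5.70 and 5.43 in YFP-positive cells, against 9.59, 8.36 and 8.01 in YFP-negative cells. Only pair 1 kept it out. Nearest to the floor of 5 inside were AT5G08240, with a lowest YFP-negative value of 5.00, and WRKY29, at 5.03. Outside it, AT5G44572 had a lowest YFP-negative value of 4.99 and AT5G48290 and AT4G39610 of 4.95. AT1G10990 and AT5G12930 followed at 4.94. Without the floor, 161 genes were at least 1.5 lower in every pair.

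AT2G21185 was the only member with a further probe set. The probe set that represents it had 5.11, 3.28 and 6.41 in YFP-positive cells, against 6.91, 8.49 and 9.07 in YFP-negative cells. The other, which the rule did not use, had 4.59, 3.01 and 5.04 in YFP-positive cells, against 5.91, 6.83 and 7.91 in YFP-negative cells. It gave a difference of -2.67 (SE 0.71), below 0 in 3 of 3 pairs, with an adjusted p of 0.25 from limma over 16722 probe sets and of 0.17 with the block, and so did not pass.

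Several members lie beside each other or beside a related gene. AT1G06135 and AT1G06137 were the only adjacent members. AT1G06135 had 4.22, 4.68 and 2.90 in YFP-positive cells, against 7.09, 8.27 and 7.11 in YFP-negative cells. AT1G06137 had 3.62, 1.73 and 1.42 in YFP-positive cells, against 6.08, 7.31 and 5.86 in YFP-negative cells. In both, pair 1 was the narrowest, and the highest YFP-positive array was replicate 2 in AT1G06135 and replicate 1 in AT1G06137. AT1G22890, which had 5.25, 3.07 and 2.98 in YFP-positive cells, against 7.35, 6.79 and 8.15 in YFP-negative cells, stood next to the left-out dirigent-like gene AT1G22900. AT2G43530, AT2G43590 and AT2G43620 lay within a run in which 6 genes and then 2 genes separated neighbouring members, and CYP71B19 and CYP71B23 had 3 genes between them. AT4G23680 and AT4G23730 had 4, and AT5G38900 and AT5G38980 had 7. BETA-VPE and AT1G62780 had 6 genes between them. AT1G62780 had 4.75, 3.35 and 4.33 in YFP-positive cells, against 6.59, 5.48 and 6.96 in YFP-negative cells, and in both genes replicate 2 was the lowest array of each population. Strand and probe overlap between adjacent genes were not analysed here.

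Genes next to a member were chosen by position alone, with those that met the thresholds set aside. There were 134 of them with a name on the array. Of these, 90 (67.2%) had a mean difference below 0, against 54.6% of all genes, and 17 (12.7%) had one of -1.5 or below, against 3.13% of all genes. In 19 (14.2%) the groups did not overlap, lower in YFP-positive cells, against 4.34% of all genes. Limma called 0 of the 134, with or without the block. At an unadjusted p under 0.05 without the block, 18 of the 134 were lower, a larger share than the 3.43% of all genes. Among the 56 neighbours whose YFP-negative mean was above 5, 9 (16.1%) had a difference of -1.5 or below, against 7.02% of the 4912 genes at that level. The neighbours that met the thresholds themselves are not in these shares. Several of the 17 belong to the family of the member beside them. AT2G43535, a knottin gene beside AT2G43530, had 2.40, 1.65 and 1.81 in YFP-positive cells, against 3.07, 8.08 and 5.13 in YFP-negative cells. CYP71B22, beside CYP71B23, had 3.87, 1.32 and 1.67 in YFP-positive cells, against 3.87, 5.37 and 6.81 in YFP-negative cells, with the same value on both arrays of replicate 1. MSRB8, beside MSRB9, had 1.92, 1.42 and 1.15 in YFP-positive cells, against 3.73, 4.66 and 2.85 in YFP-negative cells. All 3 showed their widest gap outside pair 1. The peroxidase gene AT4G37520 beside AT4G37530 had pair differences of -0.72, -1.71 and -2.95, and CYP71B20 beside CYP71B19 had -1.18, -1.43 and -2.07. Other relatives beside a member were not lower by mean, such as the peroxidase genes AT2G38390 (0.06) beside AT2G38380 and AT5G64110 (0.34) beside AT5G64120. Families were not assigned across the 134, so no share is given for relatives. AT1G65490, beside AT1G65500, had 1.16, 1.27 and 1.47 in YFP-positive cells, against 3.23, 7.03 and 6.22 in YFP-negative cells. This was the largest mean difference, -4.20, with an adjusted p of 0.161 from limma and 0.151 with the block. AT2G38870, beside YLS5 and of a protease inhibitor family, was bright in both populations with 10.19, 8.43 and 9.43 in YFP-positive cells, against 10.64, 11.36 and 11.34 in YFP-negative cells. Whether related neighbours share probe signal was not tested.

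**Figure D5:**
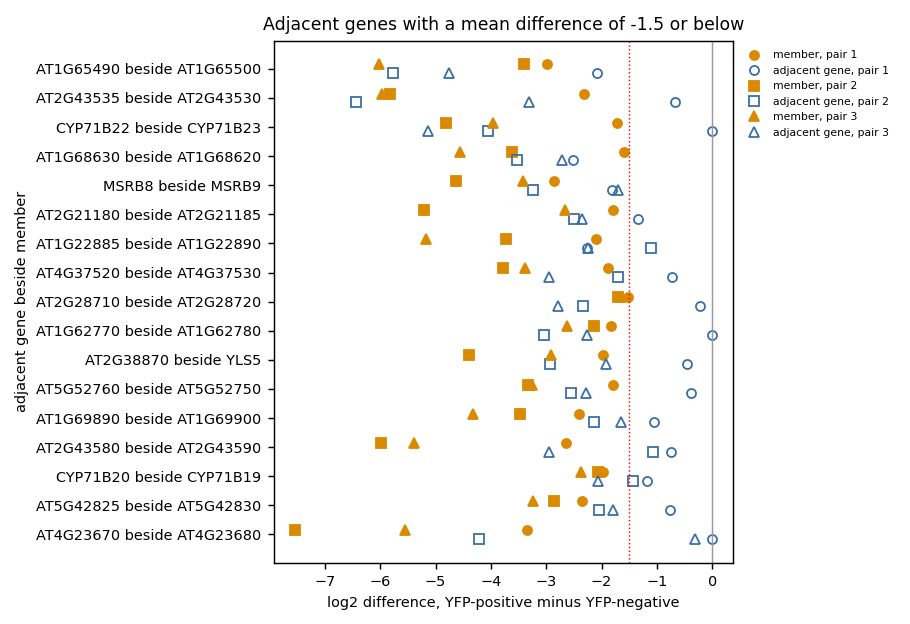
Log2 differences (YFP-positive minus YFP-negative) in pairs 1, 2 and 3 of the 17 adjacent genes with a mean difference of -1.5 or below (open blue) and of the member beside each (filled orange). For most rows the circle of pair 1 lies nearest to 0 for the adjacent gene, as it does for the member.

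Among lists of related genes, few had members, and since 14745 of the 16550 genes carry only a locus tag, families chosen by symbol were small. Of 7 measured genes with WRKY symbols, 2 were members and 5 (71.4%, against 54.6% of all genes) had differences below 0. Their median was 0 in pairs 1 and 2 and -0.97 in pair 3. Limma called 0 at an adjusted p under 0.05, and with the block it called WRKY29. At an unadjusted p under 0.05 without the block, 1 (14.3%) was lower, against 3.43% of all genes. The 2 members were chosen on this contrast, so nothing is read from these shares. WRKY22, which acts with WRKY29 in flagellin signalling, had 8.002, 6.00 and 6.13 in YFP-positive cells, against 8.42, 7.88 and 7.10 in YFP-negative cells, with pair differences of -0.42, -1.88 and -0.97. WRKY6 was bright in both populations and had a mean difference of 0.09. Of 28 genes with CYP symbols, which stand for cytochromes P450 or, as in CYP59 and CYP71, for cyclophilins, 2 were members and 20 (71.4%, against 54.6% of all genes) lay below 0, with a median of -0.36. Limma called 0 of these with or without the block, and 7 (25.0%) were lower at an unadjusted p under 0.05, against 3.43% of all genes. These shares include the 2 members, which were chosen on this contrast, so nothing is read from them about the family. Of 17 genes in a list of immune and elicitor responses 3 were measured, WRKY29 among them. The list's EFR, the receptor for bacterial elongation factor Tu, met the thresholds and was left out by name, and PDF1.2, a defensin gene, had a difference of -0.08. In lists of tau glutathione transferases (4 of 18 measured) and of wounding and jasmonate (1 of 11 measured) there were 0 members.

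Cell type lists held 0 members, and few of their genes were measured. CHX20, known from guard cells, is set beside the 3 measured genes of the epidermis and guard cell list, FMA, MUTE and SPCH. That list covers the epidermis too, so its genes do not stand for guard cells alone. The summed log2 value of the 3 was 3.52, 2.99 and 4.76 in YFP-positive and 3.52, 3.71 and 8.68 in YFP-negative arrays. The high sum of YFP-negative replicate 3 came mostly from FMA, which had 1.502, 0.98 and 2.33 in YFP-positive cells, against 1.502, 1.395 and 5.42 in YFP-negative cells, and the sums of YFP-negative replicates 1 and 2 lay within the range of the YFP-positive arrays. MUTE and SPCH stayed at or below 2.05 on every array. Of 37 nuclear photosynthesis genes of mesophyll 6 were measured, and 5 of these (83.3%, against 54.6% of all genes) had differences below 0. With so few genes nothing is read from this share. The summed log2 value of the 6 was 35.1 to 36.8 in YFP-positive and 37.0 to 42.4 in YFP-negative arrays. The medians of these 6 in pairs 1 to 3 were -0.28, -0.44 and -1.09, so pair 1 was the narrowest there as well. The 3 measured of 15 sieve element and early phloem genes, OPS, CLE45 and AT5G02460, summed to 15.0 to 19.4 in YFP-positive and 8.44 to 15.7 in YFP-negative arrays. Of 6 companion cell and phloem parenchyma genes 1 was measured, the sugar transporter gene SWEET11, which had 4.11, 1.39 and 5.08 in YFP-positive cells, against 4.11, 2.29 and 7.92 in YFP-negative cells, a mean difference of -1.25. Of 10 xylem genes 1 was measured, GUT2, with a mean difference of -0.49. Limma called 0 genes of the epidermis and guard cell, photosynthesis and sieve element lists, with 0, 1 and 1 at an unadjusted p under 0.05. The 1 photosynthesis gene was lower in YFP-positive cells (16.7% of the 6, against 3.43% of all genes), and the 1 sieve element gene was higher. With the block limma called CLE45, which was higher in YFP-positive cells by 2.15 (adjusted p = 0.0444). Neither SWEET11 nor GUT2 passed with or without the block. Whether the mix of cell types plays a part in the members' differences was not tested.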

How the data were processed

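The authors deposited 1 table of log2 values for 38408 probe sets on 6 arrays, which came from RMA per the submitters' processing notes. Its version, its settings and the genome build are not given in the sources used. Probe sets paired with exactly 1 gene (16722) gave 16550 genes, each represented by its probe set of highest mean. Symbols came from the platform annotation and the RefSeq table of TAIR10.1, which matched 16411 gene IDs and gave the order of adjacent genes.

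The members and lists were chosen with earlier results of these data known. Limma 3.58.1 in R 4.3.3 was fitted to all genes (YFP-positive minus YFP-negative, two-sided, Benjamini-Hochberg, adjusted p under 0.05), and its code was run on simulated data. The simulated errors were independent and mostly smaller than the spread of these arrays, without their pairing or equal values. That run therefore checks the code and not the error rates here. The labels do not name separate cultures, so the limma p-values rest on a spread between arrays that may be technical. Same-numbered arrays deviated together in all 3 pairs, so the numbers were taken to pair the samples, and a fit with the replicate number as a block stands beside the counts it moves. Values on every array are given for 52 members by rule. These are the 20 with the largest difference, the 5 with the highest YFP-positive mean, those called, in lists, in runs or at a threshold, and those that turn on an alternative. Such values are also given for AT4G37530, AT2G38380, AT1G52200, AT5G42830, AT4G19370 and AT2G21185, and these and other genes were named after their values were seen. Closest proteins and promoter motifs were not analysed here.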

Additional observations from a re-analysis of the deposited data

How the results depend on the processing

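The number of members was 192 with a threshold of 1 in each pair, 38 with a threshold of 2, and 49 when all 9 differences between a YFP-positive and a YFP-negative array had to reach 1.5. Without replicate 1, 2 or 3 in turn it ran from 115 to 263, the highest without replicate 1. Scaling and floors kept it between 66 and 123. Calls from limma moved far more, and the cause was not tested. Over all genes, 37 were lower in YFP-positive cells, against 165 after median centring, 8 with the replicate block, 71 with trend and robust priors and 84 among genes above 5 in at least 3 arrays. Fewer genes were tested in the last. Members among them numbered 15, against 25 after quantile normalization, 75 after median centring, 4 with the replicate block, 39 with trend and robust priors and 58 with the filter. Of the 15, 14 were among the calls after median centring and with the filter, 9 with trend and robust priors, 6 after quantile normalization and 1 with the block. Leaving out 1 array at a time gave 0 to 38 lower genes and 0 to 18 members. Without YFP-positive replicate 3 or YFP-negative replicate 3 limma called 0 lower genes, with 404 and 464 at an unadjusted p under 0.05. Without YFP-positive replicate 2 it called 3, and without YFP-negative replicate 2 it called 13. Members among the calls numbered 0 without YFP-positive replicates 2 or 3 or YFP-negative replicate 3. They numbered 7 without YFP-negative replicate 1 and 1 without YFP-negative replicate 2. In these limma fits 83 to 90 members were lower at an unadjusted p under 0.05, among 362 to 687 of all 16550 genes. The rule used this contrast, so nothing is read from these counts of members. The members' median difference stayed between -3.27 and -2.73 in all alternatives run. Each of 52 members kept its sign in 9 alternatives, 468 values in all, of which 435 lay within 1 SD of its pair differences. The rule asked for a gap of 1.5 in every pair, so the choice largely fixed these signs and nothing is read from them. The replicate block leaves differences and their sizes as they are. It also changed calls among higher genes, which numbered 82 with it and 142 without. The scaling alternatives for the reading in the pair not used and for adjacent genes, and the block there, were chosen after the data were seen. They gave 17 to 20 adjacent genes at -1.5 or below. YFP-positive values under the array median limit the size of the differences of 27 members.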

Other observations

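Probe sets that carry several genes or no name are not among the members. Of 21686 such probe sets, 123 (0.567%) met the same thresholds, with a median difference of -2.87, against 0.701% of the named genes.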
